A study of Mus musculus with 4 samples.

Results

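Among the sorted endothelial cells (EC) of the mouse aorta, 50 cells stood out by RNA of genes known from capillaries, from veins and from the handling of blood lipids. These cells were chosen by a score over 6 genes, *Lrg1*, *Fabp4*, *Nr2f2*, *Gpihbp1*, *Cd36* and *Igfbp3*. The score was the mean over the 6 genes of ln(1 + count per 10000 counts of the cell). Of 991 deposited cells, 824 had more than 1200 genes and at least 1 count of *Pecam1*, *Cdh5* or *Vwf*, and these are called EC here. The 50 EC of highest score are called panel-high EC below, after the rule, and the remaining 774 are the other EC. The 6 genes were picked to mark capillary or venous EC that handle lipids, but 4 of the 50 cells had a count of neither *Fabp4* nor *Cd36*, and other genes of lipid handling were divided, as described below.

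The cells came from 4 single-cell libraries of aorta, s001 and s002 labelled Jag1 ECKO and s003 and s004 labelled Jag1 ECWT. Jag1 ECKO mice carried Jag1 fl/fl alleles and a tamoxifen-inducible Cre recombinase driven by the *Cdh5* promoter, which is active in EC, and the controls were Jag1 fl/fl Cdh5 +/+. Tamoxifen was given for 5 days at 2 mg per day, and the mice were C57BL/6J males of 1.5 to 3 months. Aortas were taken from the root to below the iliac artery, cleared of fat and connective tissue, and freed of the adventitia (the outer layer of the wall) after a short digestion. The remaining tissue was digested further, and CD31+ CD45- TO-PRO-3- cells (endothelial marker, no leukocyte marker, no dead-cell stain) were sorted singly into wells for SORT-seq. How many mice entered each library, and whether these mice also received the high-fat diet used elsewhere in the study, is not given in the sources used here. P-values therefore measure the spread between libraries, which may be technical.

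*Jag1*, the gene to be deleted (chromosome 2, 137081456 to 137116644, minus strand, GRCm38), went against the labels. In the other EC its level per 1000000 counts (CPM) was 166 and 72.9 in s001 and s002 and 32.5 and 26.5 in s003 and s004, so that both libraries labelled Jag1 ECKO lay above both labelled Jag1 ECWT. In panel-high EC it had 14, 2, 1 and 0 counts in s001 to s004. Libraries are named by their labels throughout, and no direction between labels is read as an effect of the deletion. EC per library numbered 202, 236, 140 and 246 in s001 to s004, with 859910 to 1780342 estimated transcripts each. Of the 824 EC, 45 held at least as many counts of fibroblast and smooth muscle genes as of endothelial genes, 4 of them among the panel-high EC. Counts were therefore also compared without these 45 cells.

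Capillary endothelium of muscle, heart and fat takes up fatty acids from triglyceride-rich lipoproteins. *Gpihbp1* encodes the protein that binds lipoprotein lipase and carries it across capillary EC to the blood side, *Cd36* a fatty acid transporter and *Fabp4* a cytosolic fatty acid carrier. The transcription factors Meox2 and Tcf15 act together on this uptake in heart EC. *Nr2f2* encodes COUP-TFII, the nuclear receptor that holds venous identity and represses Notch signalling in veins. *Lrg1* encodes a secreted glycoprotein that modifies TGF-beta signalling in EC, and *Igfbp3* an insulin-like growth factor binding protein. The aorta is lined by large-artery EC.

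The values of the 6 genes chose the cells and are given as a description, with no test. *Fabp4* was found in 45 of the 50 panel-high EC, at 4575, 2884, 2558 and 6541 CPM in s001 to s004, against 31.3 to 53.8 CPM in the other EC. *Nr2f2* was found in 36, at 404 to 974 CPM against 2.41 to 28.2. *Cd36* was found in 35, at 1025 to 1582 CPM against 1.18 to 13.5. *Lrg1* was found in 33, at 436 to 841 CPM against 2.04 to 27.1. *Gpihbp1* was found in 15, at 84.4, 282, 269 and 623 CPM in s001 to s004, and *Igfbp3* in 13. Among the other EC, *Fabp4* had a count in 11.8%, *Lrg1* in 5.68%, *Nr2f2* in 4.52%, *Cd36* in 2.58%, *Gpihbp1* in 1.16% and *Igfbp3* in 0.258% of cells. Panel-high EC had a median of 4182 counts against 5380 in the other EC. They had fewer genes per cell in s001, s002 and s003 and more in s004, with medians of 2165.5 and 2081.5 genes there.

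Few cells held all of the chosen genes at once. Of the 50, 8 held 2 of the genes, 15 held 3, 21 held 4, 4 held 5 and 2 held 6, whereas 592 of the other EC held 0 and 0 of them held 3 or more. *Fabp4* and *Cd36* were together in 34 cells, *Fabp4* and *Nr2f2* in 32, and *Nr2f2* and *Cd36* in 22. Of the 15 cells with *Gpihbp1*, 14 had *Cd36* and 6 had *Nr2f2*. The score ran from 2.71 down to 0.624 with a median of 1.63, and the next cell below the 50 stood at 0.556. The end of the ranking was mixed: the last 3 cells inside, all from s003, held 2 of the genes each, and the 4 cells dominated by fibroblast or smooth muscle genes lay at ranks 41, 44, 45 and 46.

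**Figure D1:**
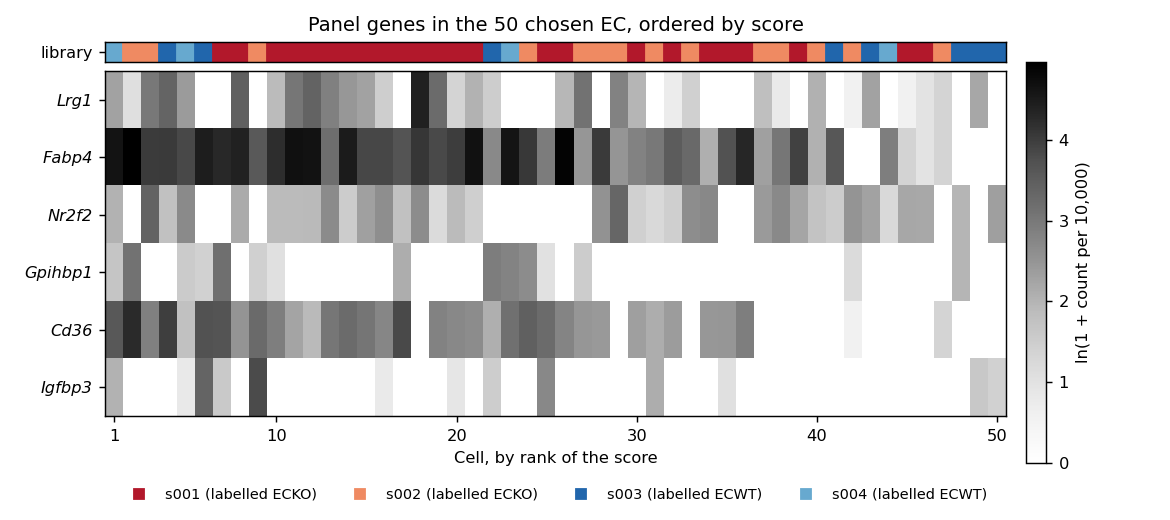
Level of the 6 genes that chose the cells, as ln(1 + count per 10,000), in each of the 50 panel-high EC ordered from the highest score on the left, with the library of each cell in the strip above. Fabp4 is found in 45 cells, Gpihbp1 in 15 and Igfbp3 in 13, and the cells at the right end hold the fewest genes.

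Panel-high EC made up 24 of 202 EC of library s001 (11.9%, exact 95% interval 7.76 to 17.2%) and 14 of 236 EC of s002 (5.93%, 3.28 to 9.75%). In the libraries labelled Jag1 ECWT they made up 8 of 140 EC of s003 (5.71%, 2.50 to 10.9%) and 4 of 246 EC of s004 (1.63%, 0.445 to 4.11%). The mean share was 8.91% ± 4.21 (SD, n = 2) in libraries labelled Jag1 ECKO and 3.67% ± 2.89 (SD, n = 2) in those labelled Jag1 ECWT. Both shares labelled Jag1 ECKO were the higher, though those of s002 and s003 had almost the same value, and the exact permutation test, two-sided, gave p = 0.333, the smallest that 2 libraries against 2 allow. EC were also thinned to 2837 counts each, which left out 82 shallower EC, and the 50 cells were chosen anew, 40 of them as before. The shares were then 10.8, 7.62, 7.87 and 2.21%, and the labels overlapped. They also overlapped with the 6 genes scaled to equal spread before averaging, at 11.9, 5.51, 7.14 and 1.22%.

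**Figure D2:**
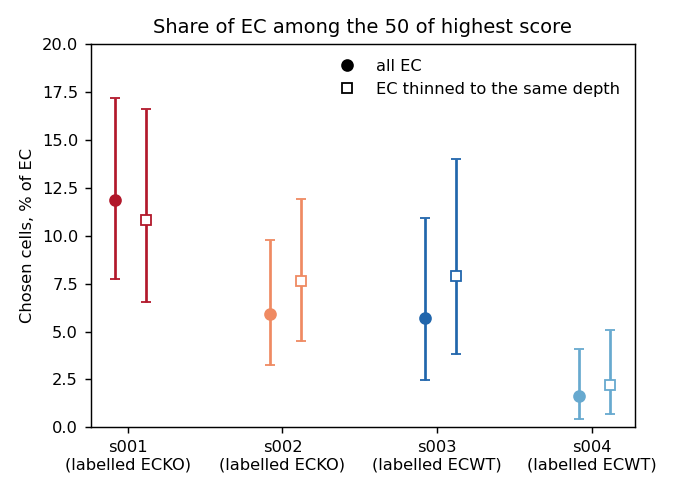
Panel-high EC as a percentage of EC in each library, over all EC (filled) and after thinning each EC to the same depth and choosing the 50 anew (open). The exact 95% intervals cover counting error only. The order s001, s002, s003, s004 holds for all EC, and s003 passes s002 after thinning.

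The question of the next comparison was which other genes set panel-high EC apart from the other EC of the same library. *Plvap*, *Flt1*, *Sparcl1* and *Emcn*, known from capillaries, were higher, *Sfrp1*, *Hey2* and 10 of 11 tested genes of large-artery matrix and secretion were lower, and genes of lipid handling were divided. Counts were summed over each kind of cell in each library, the 6 chosen genes and the 3 gate genes were left out, and edgeR's quasi-likelihood test was run with the library as a block. Of 6620 genes tested, 176 (2.66%) were higher and 285 (4.31%) lower in panel-high EC at an adjusted p below 0.05 (Benjamini-Hochberg), and 141 and 267 of these had the same direction in all 4 libraries. The median log2 fold change over all genes tested was -0.16. The filter on low counts asked for 21 CPM in at least 4 of the 8 sums, so a gene rare in other EC could be tested only if panel-high EC of enough libraries held it, and the filter thus favours higher values for such genes. Of the genes tested, 5355 passed in the other EC alone, and of these 82 (1.53%) were higher and 285 (5.32%) lower, with a median of -0.21. The other 1265 passed with the help of panel-high EC, and 94 of them were higher and 0 lower. In this comparison list counts are given for both kinds together and then for those that the other EC carried alone. The cells were selected on the 6 genes, which were themselves picked from earlier results on these cells, so these calls describe the chosen cells and are not independent support for their type.

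The 20 genes of highest fitted fold change all passed the filter with the help of panel-high EC, and they are given as a description of the chosen cells. *Rbp7*, which encodes a retinol-binding protein of capillary and fat endothelium, had 3, 10, 5 and 4 counts in panel-high EC of s001 to s004 (23.0, 128, 168 and 178 CPM) and 0, 1, 3 and 0 counts in other EC. *Tcf15* had 10, 4, 3 and 2 counts against 0, 1, 1 and 1, and *Meox2* had 35, 4, 4 and 3 counts against 3, 1, 0 and 4. For each of these 3 genes every library was higher in panel-high EC, with log2 fold changes of 6.72 (SE 0.66), 6.40 (SE 0.70) and 6.08 (SE 0.64). *Meox2* was found in 18 of the 50 cells and in 7 of the 774 others, and *Tcf15* in 11 and 3. *Tcf15* and *Meox2* were among the genes on the list of lipid handling as well.

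Receptors and signalling proteins were among the same 20 genes. *Kdr*, which encodes VEGF receptor 2, had 115, 179, 539 and 178 CPM in s001 to s004 against 3.39, 1.18, 7.23 and 4.76 CPM in other EC, a log2 fold change of 5.69 (SE 0.54), and was found in 26 of 50 against 15 of 774 cells. *Nrp2*, a co-receptor of VEGF and semaphorins, was higher by 5.42 (SE 0.54). *Robo4*, an endothelial guidance receptor, was found in 34 of 50 against 38 of 774 cells and was higher by 4.31 (SE 0.44). *Ednrb*, the endothelin receptor B, was higher by 4.58 (SE 0.58), with 10 of its 25 counts in 1 cell of s002. *Pde2a*, a phosphodiesterase that breaks down cyclic nucleotides, stood at 683, 179, 370 and 178 CPM against 9.03, 2.35, 14.5 and 0 CPM, a log2 fold change of 5.78 (SE 0.44), and was found in 32 of 50 cells.

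Others of the 20 were *Rgcc*, *C1qtnf9*, *Cd300lg*, *Gpr126*, *Fscn1*, *Chp2*, *Pcdh17*, *Alpl*, *Ucp2*, *Xdh* and *Cyp26b1*. *C1qtnf9* encodes a secreted relative of adiponectin, *Ucp2* a mitochondrial carrier, *Xdh* xanthine dehydrogenase and *Cyp26b1* an enzyme that breaks down retinoic acid. Log2 fold changes over the 20 genes ran from 3.88 to 6.72, and each gene was found in 7 to 34 of the 50 cells. *Cyp26b1* was uneven, at 23.0 and 44.5 CPM in s001 and s004 and 602 and 404 in s002 and s003, yet above the other EC in each library. The 20 genes had between 12 (*Fscn1*) and 118 (*Pde2a*) counts over all panel-high EC, so the size of their change is known only roughly.

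The 10 genes of lowest fitted fold change, named by the same rule, had 0 counts in all panel-high EC, so that only a bound on each decrease can be given and the genes cannot be ranked against others that fell. *Adra2a*, an alpha-2 adrenergic receptor, had 161, 78.2, 98.8 and 64.0 CPM in the other EC of s001 to s004. At that level 31.5 counts would fall in panel-high EC, and since a count of 0 allows up to 3 counts over the group (11.5 CPM), it was at least 10.5-fold lower. *Pla2g5*, a secreted phospholipase, had 0 counts where 21.6 would fall. By the same bound *Ccrl1*, an atypical chemokine receptor, was at least 5.81-fold and *Perp*, a desmosomal membrane protein, at least 5.78-fold lower. *Col4a3*, *Ddr1*, *Pipox*, *Wnk4*, *Gm10400* and *Tbx1* had bounds of 3.86-fold to 4.97-fold. Adjusted p-values of these 10 genes by edgeR did not exceed 0.00481.

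**Figure D3:**
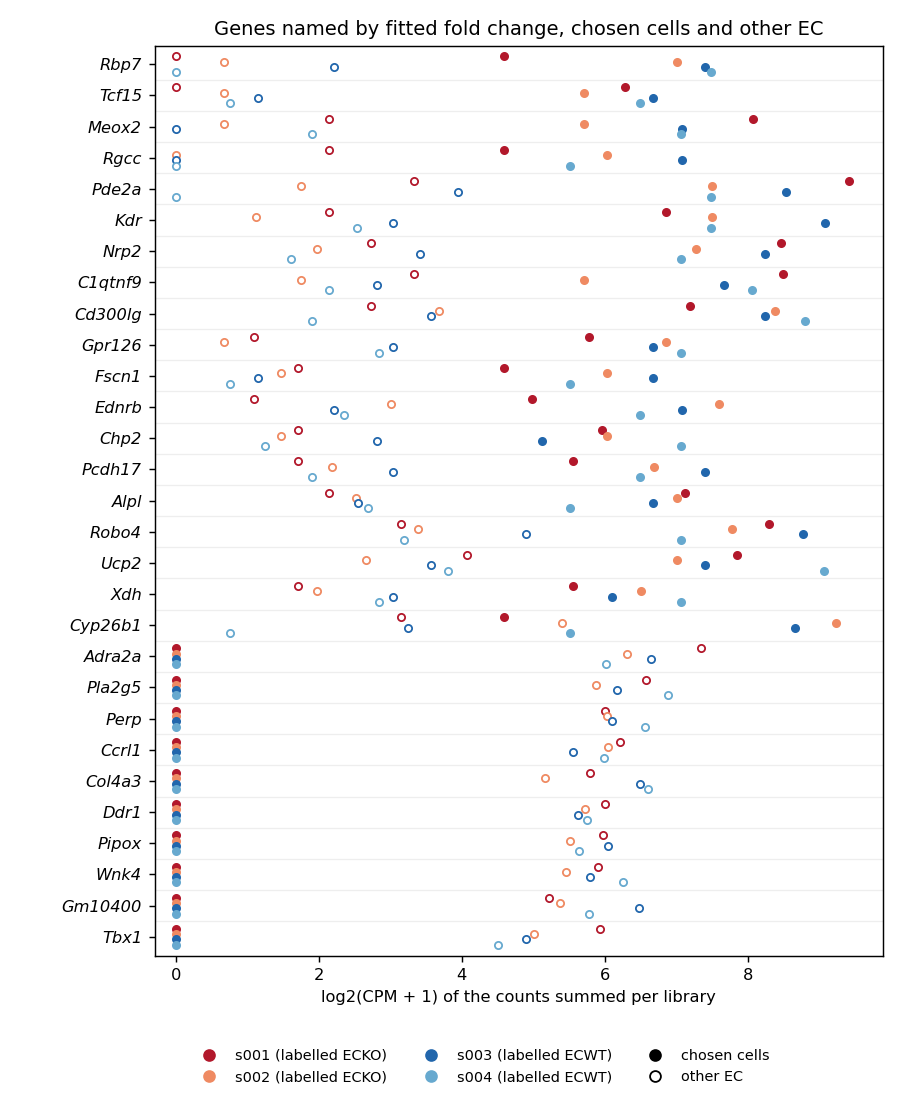
Level of 19 of the 20 genes of largest increase and the 10 of lowest fitted fold change as log2(CPM + 1), with filled points for panel-high EC and open points for other EC of the same library. In every row the filled points lie on one side of the open point of their library, and the 10 genes at the bottom are at 0 in panel-high EC.

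Some further genes were named after their values were seen. *Sfrp1*, a secreted Wnt antagonist, stood at 169, 423, 101 and 400.5 CPM in panel-high EC against 2332, 2129, 2247 and 2883 in other EC, a log2 fold change of -3.33 (SE 0.27), and was found in 30 of 50 against 757 of 774 cells. *Efna5*, *Spon1* and *Thbs1* were lower as well, with log2 fold changes of -3.38, -3.08 and -3.11, and so were *Bmp4* and *Fstl1*, with -2.22 and -2.11. *Adh7*, an alcohol dehydrogenase that also oxidizes retinol, had 4 counts in panel-high EC where 124 would fall at the level of the other EC. *Aqp1*, the water channel of capillary EC, was higher in each library, at 1423 to 2491 CPM against 366 to 696 (adjusted p = 2.67e-16 by edgeR), and was found in 38 of 50 against 316 of 774 cells. *Igfbp5* was higher by 2.71 (SE 0.31), but 154 of its 260 counts were in 1 cell of s002 and it had 0 counts in s003. With only the 30 highest cells as members it came to 0.29 and missed the threshold, and without the cells rich in lymphatic genes described below it came to 1.37.

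Of 13 capillary genes, 10 passed the filter on low counts, and 8 of these were higher, 0 lower and 2 not past the threshold, with a median log2 fold change of 2.73 against -0.16 over all genes. Of the 8, *Rgcc*, *Kdr* and *Cd300lg* passed the filter with the help of panel-high EC. Of the 6 genes carried by the other EC alone, 5 were higher and 0 lower, with a median of 2.30 against -0.21 over all such genes. *Plvap*, the diaphragm protein of fenestrae and caveolae, stood at 3201, 1551, 3029 and 2358 CPM in panel-high EC of s001 to s004 and at 414, 470, 383 and 347 CPM in other EC. Its log2 fold change was 2.43 (SE 0.23), and it was found in 41 of 50 against 478 of 774 cells. *Flt1*, VEGF receptor 1, was higher by 3.64 (SE 0.32), *Sparcl1*, a matrix glycoprotein, by 3.02 (SE 0.29) and *Emcn*, the sialomucin of capillaries and veins, by 2.17 (SE 0.28). *Cd300lg*, found in capillary and high endothelial EC, was higher by 5.07 (SE 0.49), with 19, 26, 9 and 10 counts against 5, 20, 9 and 4. *Rgcc*, a cell cycle regulator used as a capillary marker, was higher by 5.79 (SE 0.73), and *Cyp4b1*, a fatty acid oxygenase, by 1.62 (SE 0.29).

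*Timp4* and *Sgk1* were tested and not past the threshold, at 0.63 (SE 0.73) and 0.22 (SE 0.30). *Car4*, *Prx* and *Btnl9* were too low to test, with 1, 2 and 5 counts in panel-high EC and a higher pooled level there than in other EC. The counts of *Car4* and *Prx* are too few to read a direction. Counted per cell, panel-high EC held a median of 5 of the 13 genes (1 to 10) and other EC a median of 2 (0 to 7). At least 3 were found in 46 of the 50 panel-high EC (92%) and in 281 of the other EC (36.3%), although the former had fewer counts per cell. The 11 panel-high EC with a score under 1 held a median of 5 as well, but at least 3 were found in 8 of these 11 (72.7%) and in 38 of the 39 with a higher score (97.4%).

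Venous genes were divided. Of 16, 10 were tested, 5 were higher and 3 lower, with a median of 1.09. Of the 9 carried past the filter by the other EC alone, 4 were higher, all but *Nrp2*, and 3 lower. The higher ones were *Nrp2* and *Emcn* above, *Ctla2a* at 1.73 (SE 0.27), *Il6st*, the signalling chain of interleukin-6 receptors, at 1.08 (SE 0.24), and *Ephb4*, the venous receptor of ephrin-B2, at 1.09 (SE 0.36). *Ephb4* had an adjusted p of 0.0395 by edgeR and missed the threshold whichever library was left out, as well as with DESeq2 and with the 30 or 80 highest cells. Of the 3 lower ones, *Vcam1* stood at -1.56 (SE 0.32) and *Icam1* at -1.02 (SE 0.33), both adhesion molecules for leukocytes. The other 6 venous genes were too low to test and each had a higher pooled level in panel-high EC, where 1 count weighs more than in the larger group of other EC. Pooled over libraries, *Aplnr* had 10 counts (38.4 CPM) against 1 (0.205 CPM), *Darc*, the venular chemokine receptor now named *Ackr1*, 18 (69.1 CPM) against 11 (2.25 CPM), and *Il1r1* 6 (23.0 CPM) against 89 (18.2 CPM). *Sele* had 17 counts, 11 of them in 1 cell, and *Il1r1* had all 6 in s001. *Selp*, another venular selectin, was not past the threshold at -0.57 (SE 0.28). 

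Of the arterial genes tested, more were lower than higher. Of 18, 15 were tested, of which 6 were lower, 2 higher and 7 not past the threshold, with a median of -0.60. Of the 13 carried past the filter by the other EC alone, 6 were lower and 1 higher, with a median of -0.88 against -0.21 over all such genes. *Hey2*, a Notch target that sets arterial fate, had 1, 1, 0 and 0 counts in panel-high EC of s001 to s004, where other EC stood at 150.5 to 227 CPM, and its log2 fold change was -4.65 (SE 0.66). *Bmx*, a tyrosine kinase of arterial EC, was lower at -2.84 (SE 0.36). The gap junction genes *Gja4* (connexin 37) and *Gja5* (connexin 40) stood at -2.18 (SE 0.36) and -2.32 (SE 0.49), and *Efnb2*, the arterial ephrin, at -1.53 (SE 0.31). *Edn1*, which encodes endothelin 1, was lower at -1.21 (SE 0.33). The 2 higher genes were *Alpl*, an alkaline phosphatase, at 4.43 (SE 0.56), which passed the filter with the help of panel-high EC, and the chemokine gene *Cxcl12* at 1.57 (SE 0.31). *Cxcl12* was uneven, at 338, 115, 1245 and 89.0 CPM in s001 to s004 against 84.7, 101, 134 and 103 CPM. It was thus nearly level in s002 and lower in s004. *Sox17*, *Nrp1*, *Dll4* and *Unc5b* were not past the threshold. *Jag1* itself stood at -0.88 (SE 0.51, adjusted p = 0.459). The 3 arterial genes too low to test each had a higher pooled level in panel-high EC, but *Sema3g*, with 1 count, gives no direction. *Jag2*, another Notch ligand, had 8 counts (30.7 CPM) against 5 (1.02 CPM), *Hey1* 5 (19.2 CPM) against 36 (7.37 CPM), and *Sema3g* 1 (3.84 CPM) against 13 (2.66 CPM).

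Genes of large-artery matrix and secretion were lower almost throughout. Of 13 genes, 11 were tested, all carried past the filter by the other EC alone, and 10 of these were lower, with a median of -1.40. Of the 2 too low to test, *Vcan* had 1 count (3.84 CPM) against 96 (19.6 CPM). *Mfap4* had 0 counts against 9 (1.84 CPM), too few to read a direction. *Cytl1*, a secreted protein abundant in aortic EC, stood at 2625, 1897, 3602 and 1068 CPM in panel-high EC against 7703, 8173, 7676 and 8361 CPM in other EC, a log2 fold change of -2.03 (SE 0.21). *Clu*, clusterin, was lower at -1.99 (SE 0.22), *Eln*, elastin, at -1.55 (SE 0.23), *Fbln5*, fibulin 5, at -1.48 (SE 0.28) and *Mgp*, which restrains calcification, at -1.28 (SE 0.21). *Emilin1* was not past the threshold at -1.16 (SE 0.45). These genes were lower and not absent. Panel-high EC held a median of 8 of the 13 genes per cell and other EC 9, and *Cytl1* had a count in 47 of the 50.

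Genes of lipid handling outside the 6 chosen ones were divided. Of 37, 21 were tested, 6 were higher (against 2.66% of all genes) and 2 lower, with a median of 0.12. Of the 6, only *Mgll* was carried past the filter by the other EC alone. Of the 15 such genes 1 was higher and 2 lower. Besides *Tcf15* and *Meox2*, the higher ones were *Scarb1*, the scavenger receptor for HDL, at 3.07 (SE 0.45), *Fabp5*, a second fatty acid carrier, at 2.38 (SE 0.52) with 0 counts in s003, *Lpl*, lipoprotein lipase, at 2.37 (SE 0.63), and *Mgll*, monoglyceride lipase, at 2.25 (SE 0.28). *Mgll* was at 430, 513, 640 and 801 CPM against 119, 106, 122 and 76.9 CPM. *Lpl* was low, with 4, 6, 2 and 1 counts, 6 of the 13 in 1 cell, and missed the threshold without s002, at 2.10. *Scarb1* was uneven, at 192, 38.5, 976 and 44.5 CPM in s001 to s004. The lower genes were *Apoe*, apolipoprotein E, at -1.32 (SE 0.22) and *Cav1*, caveolin 1, at -0.72 (SE 0.23), found in 50 and 49 of the 50 panel-high EC.

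The other 13 tested genes of this list were not past the threshold, with log2 fold changes from -1.11 for *Lrp1* to 0.99 for *Abcg1*. Among them *Acsl4*, *Acsl5*, *Plin2*, *Plin3*, *Dgat1*, *Pnpla2*, *Abhd5* and *Cpt1a* lay between -0.85 and 0.57. The 16 genes below the filter went both ways, with a higher pooled level in panel-high EC for 9 and a lower one for 7. *Pparg*, the nuclear receptor that drives *Cd36* and *Fabp4* in fat, had 1, 0, 1 and 2 counts in panel-high EC (0 to 89.0 CPM, against 0 to 4.12 in other EC) and was not tested. *Aqp7*, a glycerol channel, and *Lipe*, hormone-sensitive lipase, had the highest pooled levels of the 16 in panel-high EC. *Aqp7* stood at 84.4, 25.6, 0 and 222 CPM in s001 to s004 against 11.3, 2.94, 1.21 and 4.76 CPM in other EC. *Lipe* stood at 99.8, 51.3, 168 and 0 CPM against 12.4, 14.1, 10.8 and 15.6 CPM. *Slc27a1* and *Dgat2* had 0 counts in panel-high EC, and *Ppard* and *Cpt2* had 1 and 2, at pooled levels of 3.84 and 7.68 CPM against 15.3 and 17.4 CPM.

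**Figure D4:**
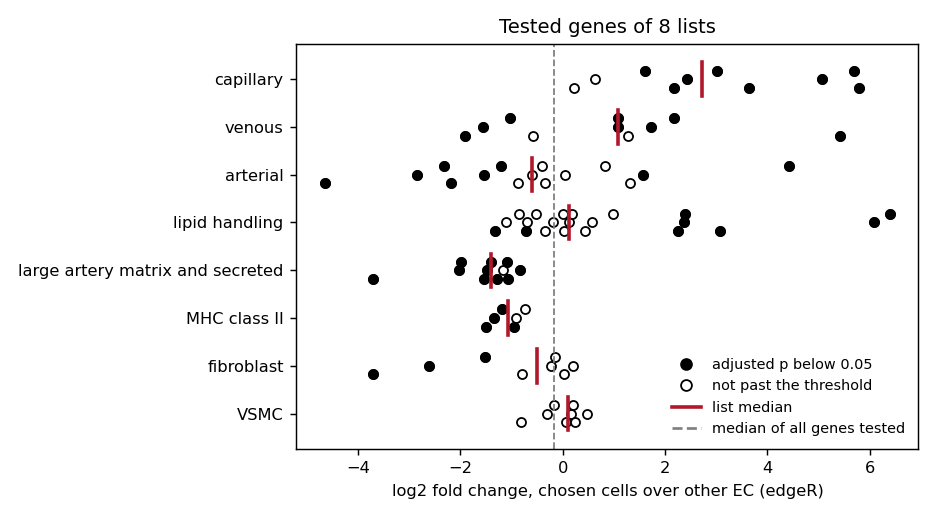
Log2 fold change of each tested gene in 8 lists, panel-high EC over other EC, with filled points at an adjusted p below 0.05 by edgeR, a red bar at the median of the list and a dashed line at the median of all genes tested, -0.16. Capillary genes lie to the right and large-artery matrix genes to the left, whereas venous and lipid-handling genes lie on both sides.

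Pan-endothelial genes showed no common shift. Of 12 tested, 4 were higher and 2 lower, with a median of 0.08: *Kdr*, *Robo4*, *Emcn* and *Eng* were higher, and *Tek* and *Icam2* lower. *Kdr* and *Robo4* passed the filter with the help of panel-high EC, and of the 10 genes carried by the other EC alone 2 were higher and 2 lower. Of the genes of the EC gate, used in the choice of EC and given without a test, *Pecam1* stood at 2188 to 2714 CPM in panel-high EC against 4593 to 5163, and *Vwf* at 1313 to 3140 against 1513 to 1718. *Cdh5* stood at 560, 423, 505 and 712 CPM in s001 to s004 against 431, 300.4, 380 and 418, so it was higher in panel-high EC of each library where *Pecam1* was lower. Of 11 tested genes of angiogenic and tip cells, 4 were higher (*Kdr*, *Flt1*, *Trp53i11* and *Lama4*) and *Vegfa* was lower at -3.24 (SE 0.69), with 3 counts, all in s001. Of these, *Kdr* and *Trp53i11* passed the filter with the help of panel-high EC, and of the 8 genes carried by the other EC alone 2 were higher and 1 lower. Of 9 genes of this list too low to test, 5 had a higher and 4 a lower pooled level in panel-high EC. The tip cell genes *Esm1* and *Cxcr4* had 0 counts and *Apln* had 1.

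Of 12 tested Notch pathway genes, *Lfng*, a glycosyltransferase that modifies Notch receptors, was higher at 2.26 (SE 0.48) and *Hey2* was lower. *Lfng* passed the filter only with the help of panel-high EC, and of the 10 genes carried by the other EC alone 0 were higher and 1 was lower. *Notch1* stood at -0.29 (SE 0.31) and *Notch4* at -0.02 (SE 0.38), neither past the threshold. MHC class II genes, which present antigen, were lower in 4 of 6, all carried by the other EC alone: *Cd74* at -1.50 (SE 0.26), *H2-Aa* at -1.18 (SE 0.28), *H2-Eb1* at -1.34 (SE 0.33) and *H2-Ab1* at -0.95 (SE 0.30). Of 15 tested genes of the response to dissociation, *Fos* was higher at 1.79 (SE 0.34) and *Hspa1a* lower at -3.87 (SE 1.10), both among the 13 carried by the other EC alone. *Fos* had 0 counts in the panel-high EC of s004. Of 3 tested cell cycle genes, all carried by the other EC alone, none passed the threshold, and their log2 fold changes ran from -0.38 to 0.61.

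Markers of other cells were low in panel-high EC, with exceptions tied to single cells. Of 8 adipocyte markers measured, 7 were at 0, among them *Adipoq* and *Plin1*, and the list summed to 0 to 23.0 CPM in panel-high EC and 3.62 to 11.3 in other EC. Of 11 leukocyte markers 7 were at 0, among them *Ptprc*, and the list summed to 0 to 67.3 CPM against 2.26 to 17.01. Of 6 red cell and platelet markers 4 were at 0, and the sum was 0 to 89.0 CPM against 2.94 to 91.4. Lymphatic markers summed to 246, 1307, 101 and 89.0 CPM in s001 to s004 against 38.1 to 79.95. Of these 7 genes, at least 3 were found in 2 panel-high EC and 1 other EC. The cell of rank 42, from s002, held 6 of them, with 31 of the 39 *Lyve1* counts, all 26 *Nts* counts and 154 of the 260 *Igfbp5* counts of panel-high EC, and 0 counts of *Prox1*. Without the 3 cells 170 genes were higher and 268 lower, and 411 of the 461 calls were kept. *Prox1*, the transcription factor of lymphatic EC, had a count in 2 other panel-high EC and in 2 of the 774 other EC, and without these 4 cells 144 genes were higher and 242 lower, and 378 of the 461 calls were kept.

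Fibroblast genes summed to 1113, 731, 3635 and 4939 CPM in panel-high EC of s001 to s004 against 1827 to 2814 in other EC, and smooth muscle genes to 6839.7, 397, 303 and 400.5 CPM against 415 to 3011. Pericyte genes reached 814 CPM in s001 and 0 to 38.5 in the other libraries. Of 8 tested fibroblast genes 3 were lower (*Col1a2*, *Mfap5* and *Pi16*), all among the 6 carried by the other EC alone, of 8 smooth muscle genes, 3 of them so carried, none passed, and of the pericyte genes *Pdgfrb*, the 1 tested and so carried, was lower. Smooth muscle counts came mainly from the cells of rank 45 and 46 in s001, with 208 and 206 of the 462 *Acta2* counts. *Dcn*, decorin, came mainly from the cell of rank 41 in s003, with 71 counts, and that of rank 44 in s004, with 91, of 225. Without the 45 cells in which such genes equalled or exceeded endothelial ones, 170 genes were higher and 278 lower, and 410 of the 461 calls were kept.

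The number of calls moved with the choice of cells. With the 30 highest cells 101 genes were higher and 228 lower, and with 80 cells 204 and 185, with 279 and 271 of the 461 calls kept and 5 and 7 changed in sign. Without s001, which gave 24 of the 50 cells, 107 and 158 passed, and 250 of the 461 calls were kept, with 0 of them reversed in sign. With DESeq2 140 and 146 passed, with 284 kept and 1 reversed. With EC thinned to the same depth, 82 shallower EC were left out and the 50 cells were chosen anew, 40 of them as before. Of 3364 genes tested then, 93 were higher and 130 lower. Only 357 of the 461 calls were tested there, with 200 kept and 1 reversed.

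Panel-high EC were then split by *Gpihbp1*, into 15 cells with a count and 35 without. Cells with and without *Gpihbp1* numbered 4 and 20 for s001, 5 and 9 for s002, 3 and 5 for s003, and 3 and 1 for s004. Library s004 was left out of the test for want of 3 cells of each kind. Cells with and without *Gpihbp1* were of like depth, with medians of 4544 and 4077 counts, but their median scores were 1.89 and 1.41. A cell without a count may have held the transcript. The 4 cells dominated by fibroblast or smooth muscle genes were all without *Gpihbp1*. Among the chosen genes, described without a test, *Cd36* was found in 14 of 15 cells with *Gpihbp1* and 21 of 35 without, and *Igfbp3* in 7 of 15 and 6 of 35. *Nr2f2* was found in 6 of 15 and 30 of 35, and *Lrg1* in 7 of 15 and 26 of 35. *Fabp4* was found in 13 of 15 and 32 of 35. The score ties these genes to each other, since a cell without one needed more of the rest.

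Of 299 genes that passed the filter in this split, 10 (3.34%) were higher and 8 (2.68%) lower in cells with *Gpihbp1*, with edgeR and the library as a block. *Cxcl12* had 36, 8 and 17 counts in the cells with *Gpihbp1* of s001 to s003 (2031, 276 and 1831 CPM) and 8, 1 and 20 in those without (71.1, 20.4 and 979 CPM), a log2 fold change of 3.05 (SE 0.48). Of the 36 counts in s001, 26 were in 1 cell, and *Cxcl12* was found in 17 of the 50 panel-high EC. *Scarb1* and *Mgll*, from the list of lipid handling, were higher by 2.41 (SE 0.63) and 1.91 (SE 0.45). *Mgll* stood at 1072, 1174 and 646 CPM against 329, 122 and 637 CPM, so that s003 showed almost no difference. *Col4a2*, a basement membrane collagen, was higher by 2.65 (SE 0.67), and *Fam101b*, a regulator of the actin cytoskeleton now named *Rflnb*, by 3.57 (SE 0.75). In this split a gene could pass the filter on low counts through 1 kind of cell alone, which favours a higher value there. *Col4a2* and *Fam101b* passed only through the cells with *Gpihbp1*, and *Cxcl12*, *Scarb1* and *Mgll* with their help, so these values are a description.

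The 8 lower genes included secreted proteins that were abundant in the other EC. *Cd74*, the invariant chain of MHC class II, had 1, 3 and 0 counts in cells with *Gpihbp1* of s001 to s003 and 62, 35 and 15 in those without, a log2 fold change of -3.03 (SE 0.75). *Cpe*, carboxypeptidase E, was lower at -2.62 (SE 0.47), *Gabarapl1*, an autophagy protein, at -2.61 (SE 0.62), and *Igfbp4* at -2.17 (SE 0.53). *Cd74*, *Gabarapl1* and *Igfbp4* passed the filter on low counts only through the cells without *Gpihbp1*, and *Cpe* with their help, so these values too are a description. *Cytl1* and *Mgp* were lower at -2.14 (SE 0.43) and -1.97 (SE 0.43). Thus *Cytl1* stood at 395 to 1001 CPM in cells with *Gpihbp1* and at 2426 to 5043 CPM in those without, and the other EC at 7676 to 8361 CPM. By list, 1 of 5 tested capillary genes (*Sparcl1*) and 2 of 5 lipid-handling genes were higher, against 3.34% of all 299 genes. So were 1 of 2 arterial genes (*Cxcl12*) and 1 of 3 angiogenic genes (*Col4a2*). Of 7 large-artery genes 2 were lower (*Cytl1* and *Mgp*), against 2.68% of all, as were 1 of 3 venous genes and the 1 MHC class II gene tested (*Cd74*). Of 6 pan-endothelial genes 0 were called. These lists are too short for their shares to be read.

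These calls were fragile. Without the library as a block 0 genes passed, with 26 at an unadjusted p below 0.05, against 50 in the blocked fit. Without s001 0 genes passed, without s002 8, all among the 18 calls, and without s003 2, of which 1 was among the 18. Of the 18 calls 0 changed sign in these fits where they were tested. Without the 45 EC rich in fibroblast and smooth muscle genes 14 of the 18 calls were kept.

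**Figure D5:**
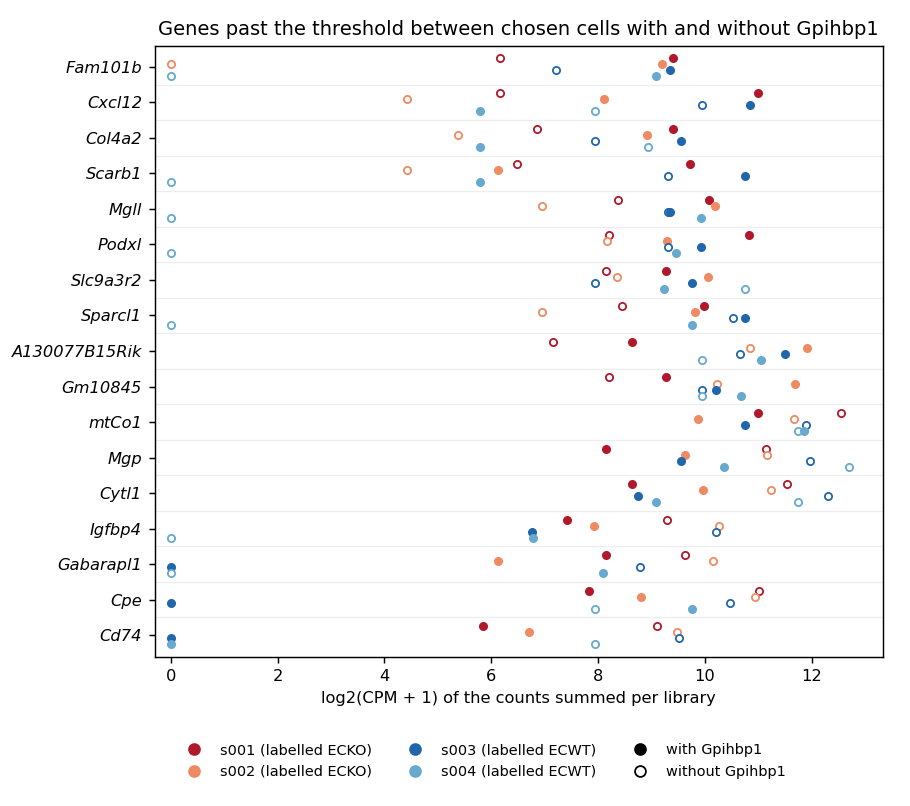
Level as log2(CPM + 1) of 17 of the 18 genes past the threshold between panel-high EC with Gpihbp1 (filled) and without (open), per library. Library s004, with 1 cell without Gpihbp1, is drawn and was not tested, and its points reverse the order for Cxcl12, Col4a2, Slc9a3r2, mtCo1, Igfbp4, Gabarapl1 and Cpe.

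Between labels, within panel-high EC, 0 of 846 genes tested (0.0%) passed the threshold by edgeR, with 55 at an unadjusted p below 0.05, and DESeq2 gave 2. The lowest p was that of *Dcn*, which fell by 3.42 on the log2 scale (SE 0.40, adjusted p = 0.102) in libraries labelled Jag1 ECKO, and *Dcn* is the gene carried by the cells of rank 41 and 44 above. *Plvap* differed by -0.10 (SE 0.41), *Aqp1* by -0.23 (SE 0.34) and *Emcn* by 0.10 (SE 0.65) between labels, none past the threshold. The libraries labelled Jag1 ECWT held 12 panel-high EC, 4 of them in s004, and the size of change that could be detected between labels was not tested.

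The difference between panel-high EC and other EC was also compared between labels. Of 8207 genes tested, 7 (0.0853%) passed the threshold for this interaction by edgeR, and DESeq2 gave 1, *Dcn*. *Igf2*, an imprinted growth factor gene, had 66 and 21 counts in panel-high EC of s001 and s002 and 0 in those of s003 and s004, while the other EC stood at 163 to 278 CPM in all libraries. *Sulf2*, a heparan sulfate sulfatase, had 28 and 16 counts against 0 and 0, and *Adh1*, a retinol-oxidizing alcohol dehydrogenase, 73 and 42 counts against 1 and 2. *Igtp*, an interferon-induced GTPase, had 52 and 27 against 1 and 0. Of the 87 *Igf2* counts 55 were in 1 cell of s001. *Acta2*, *Dcn* and *Lum* were the remaining genes, and they were the ones carried by the 4 cells dominated by smooth muscle or fibroblast genes. Without the 45 EC rich in such genes, these 4 and 41 other EC, *Acta2* no longer passed, *Lum* was not tested and *Dcn* changed sign.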

How the data were processed

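The authors aligned SORT-seq reads to GRCm38 with STAR (submitters' processing notes) and deposited an estimated count for each of 18767 genes in each cell, corrected for collisions of molecular identifiers and not normalized. The counting tool is not given in the sources used here. Values were rounded to whole numbers. Each column was matched to a library by its name (0 unmatched). The 991 cells carried 373 well barcodes, and 942 cells shared one with a cell of another library, as plates use one barcode set. No doublet caller was run.

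Members and gene lists were chosen with earlier results of these data known. Counts were summed per library and kind of cell, so the library was the replicate, and the quasi-likelihood test of edgeR 4.0.16 was run in R 4.3.3 after filterByExpr and TMM scaling, at a Benjamini-Hochberg adjusted p below 0.05. DESeq2 1.42.0 was an alternative. Numbers of replicates do not pair libraries across labels, and the block was the library itself. CPM are counts per 1000000 of all counts summed in that group of cells. Intervals are exact binomial at 95% and cover counting error only.

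Genes named are the 6 chosen ones, the 3 gate genes, *Jag1*, the 20 highest and 10 lowest fitted fold changes past the threshold with 1 direction in every library, up to 5 each way in the other tests, and members of the lists, unless said otherwise. List symbols absent from the table were matched through RefSeq synonyms. Lists are described by counts and medians, with no set test. Some genes are not reported here by name. Gene positions are from GENCODE M21. On simulated data for panel-high EC against other EC, 200 genes were changed and 6519 tested. Log2 changes of size 2 were recovered in 57.3% of the 75 such genes that passed the filter. Those of size 1 were recovered in 4.11% of 73, and 0 unchanged genes were called. The simulation gave every gene the same dispersion and chose no cells by a score, so it cannot tell how many calls of the real comparison are false. Figures were drawn with matplotlib 3.10.9.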

Additional observations from a re-analysis of the deposited data

Results flagged for a closer look

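The difference between panel-high EC and other EC itself differed between labels for 7 genes by the interaction test of edgeR, given here as log2 values, labelled Jag1 ECKO minus labelled Jag1 ECWT. It was 10.98 for *Igf2*, 10.18 for *Sulf2*, 4.70 for *Acta2*, 4.31 for *Igtp*, 3.63 for *Adh1*, -2.93 for *Dcn* and -10.48 for *Lum*. The values of *Igf2*, *Sulf2* and *Lum* rest on groups at 0 counts and depend on the prior count of the fit, so they are no bounds. All 14 *Lum* counts of panel-high EC were in 2 cells, of which 1, in s003, held 10.

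Cells with 1200 or fewer genes were outside every comparison, and some of them scored as high as the panel-high EC. They were 15 of 70 such cells in s001 (21.4%, exact 95% interval 12.5 to 32.9%), 1 of 37 in s002 (2.70%), 0 of 25 in s003 and 0 of 35 in s004, with exact 95% upper limits of 13.7% and 10.003%. Of these, 9 cells of s001 and 1 of s002 held 3 or more of the 6 genes. A single count weighs more in the score of a shallow cell, and the part of this in the shares was not tested.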

How the results depend on the processing

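Panel-high EC against other EC gave 461 calls. The count moved to 286 with DESeq2. It was 223 with EC thinned to the same depth, where members were also chosen anew, 82 EC left out and 3364 genes tested instead of 6620. With 1 library left out it lay between 265 (without s001) and 431 (without s004). The count stayed within 1.5 times the main one in the others, 447 without the library as a block among them. Of 63 genes followed through these alternatives, 48 stayed on their side of the threshold in each, and none of the 63 changed sign in any, though 5 and 7 of the 461 calls did with 30 and 80 members, and 1 each with DESeq2 and with thinning. Median log2 change over all genes moved from -0.16 to -0.12 with the size factors of DESeq2. The *Gpihbp1* split gave 18 calls. These became 8 with DESeq2, 0 without the library as a block, and 0 to 8 with 1 library left out. With an EC gate of 5 counts 2 genes were higher and 6 lower, where s004 entered the test as well and 221 genes were tested instead of 299. Without a filter on low counts 2 were higher and 22 lower, with 10 of the 18 calls kept. With thinned cells, chosen anew, only s002 and s003 were tested. There 3 were higher and 9 lower, with 5 of the 18 kept. Members between labels gave 0 calls, then 2 with DESeq2, 1 with the size factors of DESeq2, 19 without a filter on low counts, 1 with an EC gate of 5 counts, and 7 to 22 with 1 library left out, when 1 label holds a lone library assumed to vary like the rest. The interaction gave 7 calls, 1 with DESeq2, 11 without cells rich in fibroblast and smooth muscle genes, and 2 to 11 with 1 library left out. *Dcn* changed sign, to 3.55, without those cells. The causes were not tested. The alternatives without such cells, without *Prox1* or lymphatic cells, and the libraries left out of the interaction were chosen after seeing the data. No paired analysis was possible because nothing ties a library of one label to one of the other. With 50 cells and 260469 counts in all, genes under about 11.5 CPM could not be told from 0.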
